A study of Drosophila melanogaster with 8 samples.

Results

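A set of 76 genes was near silent in wing discs of control larvae and was expressed in every library from Myb mutant discs. The genes were chosen by their measured levels in these same libraries, out of 14299 genes in the count table. A gene entered when its mean level over the 3 control libraries was under 0.3 CPM (the gene's counts scaled to a common library total, with the mitochondrial row left out) and its level was at least 0.5 CPM in each of the 5 mutant libraries. Of 5844 genes with a control mean under 0.3 CPM, 83 met both conditions. The 7 left out by symbol were the cytochrome P450 genes Cyp6a17 and Cyp6a22, the taste receptor gene Gr94a, the immune peptide genes IM3 and DptB, and cato and fs(1)Ya. Because the rule used the difference between the genotypes, the rise of the members is given as a description with no test.

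Polyadenylated RNA had been sequenced from mesothoracic wing discs, the larval epithelia that form the wing and notum, of male Drosophila melanogaster in the third instar, grown at 25 °C. The mutant carried MH107, an X-linked deletion made by P-element mobilisation with the Delta2-3 transposase. It removes the 5 prime end of Myb and the neighbouring gene AlkB, so the mutant libraries are from animals without an intact copy of either gene. The line also carried w1118 and had been outcrossed into the control line yw67 (y1 w67c23), whose yellow and white mutations the control libraries carried. Mutant males die early in pupal life and were picked as larvae without GFP, since the balancer FM7i carries ActGFP. No library held a rescued genotype, so loss of Myb and loss of AlkB cannot be told apart here. How far the libraries are replicates is unclear. By the protocol text each is a biological replicate, but by the descriptions the control has a single one run 3 times, and the mutant has 2, of which mutant library 1 is one and libraries 2 to 5 are repeats of the other. For genes outside the set, p-values measure only the spread between libraries, which may be technical.

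Myb belongs to the dREAM complex, which in Drosophila activates genes needed for mitosis and also keeps a separate group of genes off. Many genes of the fly start close to a neighbour that points the other way, and insulator proteins bound between such genes can keep an active gene apart from a silent one. The wing disc is a dividing epithelium, and genes of egg formation, meiosis, chemosensation and synaptic transmission are known mainly for their work in other tissues.

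Library totals ran from 50562199 to 65322440 counts. Myb (X, 15854832 to 15857823 in BDGP6) was at 4.57 to 7.24 CPM in the mutant libraries, against 285 to 313 CPM in the control (log2 change -5.70 ± 0.14 SE, edgeR adjusted p = 1.8e-08). AlkB had no counts in any mutant library. Summed levels of 13 wing disc markers were 2006 to 2685 CPM in the control against 2522 to 2624 CPM in the mutant, all 13 detected. Without control library 2 the control sums were 2437 and 2685 CPM. Libraries stood apart within their groups in different measures. Control library 2 had the lowest wing disc sum of the controls, 2006 CPM. Control library 3 had the lowest sum of 6 fat body markers (76.1 CPM, against 4578 and 1786 CPM) and the highest mitochondrial share, 1.34%. Mutant library 1 had the highest fat body and salivary gland marker sums of the mutant libraries, 5233 and 193 CPM. In bulk discs, fewer cells of a type and less RNA per cell cannot be told apart.

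The members together made up 7.85 to 10.02 CPM of the control libraries and 516 to 669 CPM of the mutant libraries. CG1571 and fs(1)N alone made up 42.1% of the summed mutant level. The mean mutant level was 5 CPM or more for 21 members, 2 CPM or more for 40 and 1 CPM or more for 55, with a median of 2.14 CPM. Without mutant library 1, 16 members averaged 5 CPM or more. The median control mean was 0.107 CPM. In 5 members the control libraries held no counts at all, and another 7 had 1 to 3 counts over the whole group. No mutant library overlapped a control library for any member, which the rule largely fixes.

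**Figure D1:**
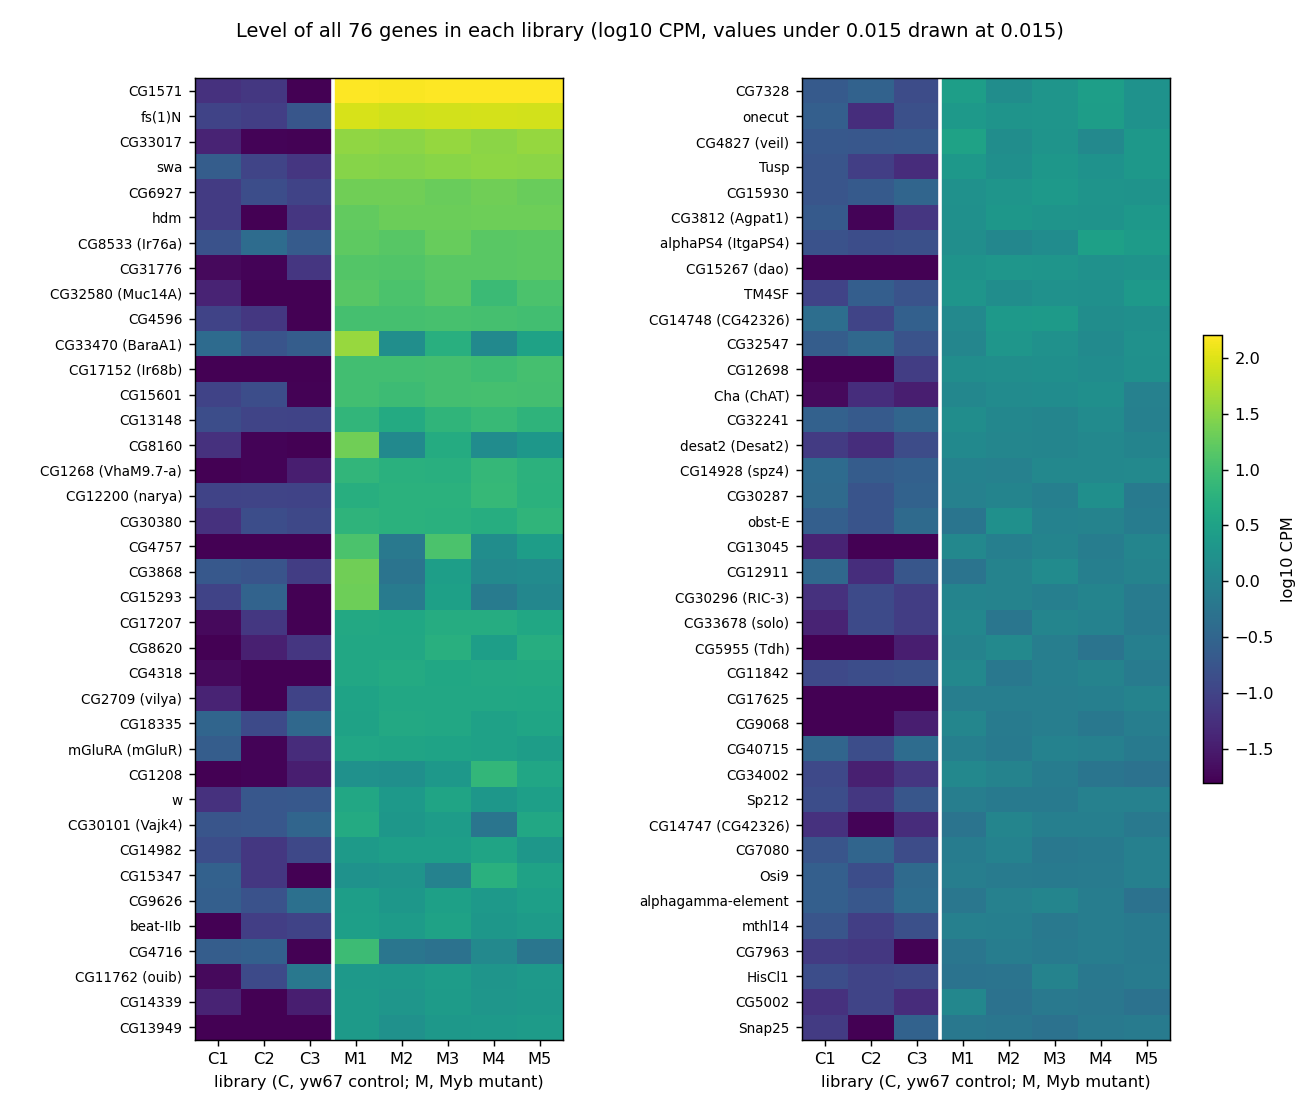
Level of each of the 76 genes (rows, ordered by mutant mean) in the 3 yw67 control libraries (C1 to C3) and the 5 Myb mutant libraries (M1 to M5), as log10 CPM in colour, with values under 0.015 CPM drawn at 0.015. Every row turns from dark to bright at the white line, and CG33470, CG8160, CG3868, CG15293 and CG4716 are brightest in M1.

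At the limits of the rule the genes formed a continuum. The control means just inside were 0.2995 CPM for CG14928, 0.2973 CPM for CG9626 and 0.2888 CPM for CG40715, and those just outside were 0.3026 CPM for CG32436, 0.3026 CPM for CG12854 and 0.3073 CPM for CG13685. The lowest mutant library just inside was 0.502 CPM for CG5002, 0.504 CPM for alphagamma-element and 0.508 CPM for CG4716. Just outside it was 0.484 CPM for slbo, 0.483 CPM for CG2254 and 0.466 CPM for CG1443.

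The most highly expressed members were switched on to nearly the same level in every mutant library. CG1571 measured 156, 149.9, 159.6, 158 and 155 CPM in mutant libraries 1 to 5, against 0.0597, 0.0706 and 0 CPM in the control libraries. It was thus near silent in every control library and the highest member in every mutant library, with the mutant libraries within 1.07-fold of each other. The ratio of its pooled levels was 3696 (95% counting interval 1793 to 9192), resting on 7 control counts. CG33017 rose to 31.4 to 37.2 CPM from a control mean of 0.0248 CPM, a ratio of 1438 (561 to 5277). CG6927 reached 19.3 to 21.8 CPM from 0.107 CPM, a ratio of 191 (121 to 322). CG31776 reached 12.98 to 15.4 CPM and CG4596 9.71 to 10.9 CPM. CG15601 reached 8.83 to 10.6 CPM. CG13148 and CG30380 were lower, at means of 6.36 ± 1.22 and 5.76 ± 0.66 CPM (SD, n = 5). The roles of these genes are not stated in the files. These intervals cover counting error only.

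Compared per kilobase of annotated exon, CG1571 also led, at 67.7 CPM per kb in the mutant. It was followed by swa at 15.4, hdm at 13.5, fs(1)N at 13.02 and the short gene CG30380 at 12.6 CPM per kb. Muc14A (CG32580), with very long exons, was among the 10 highest members by CPM but stood at only 0.250 CPM per kb.

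**Figure D2:**
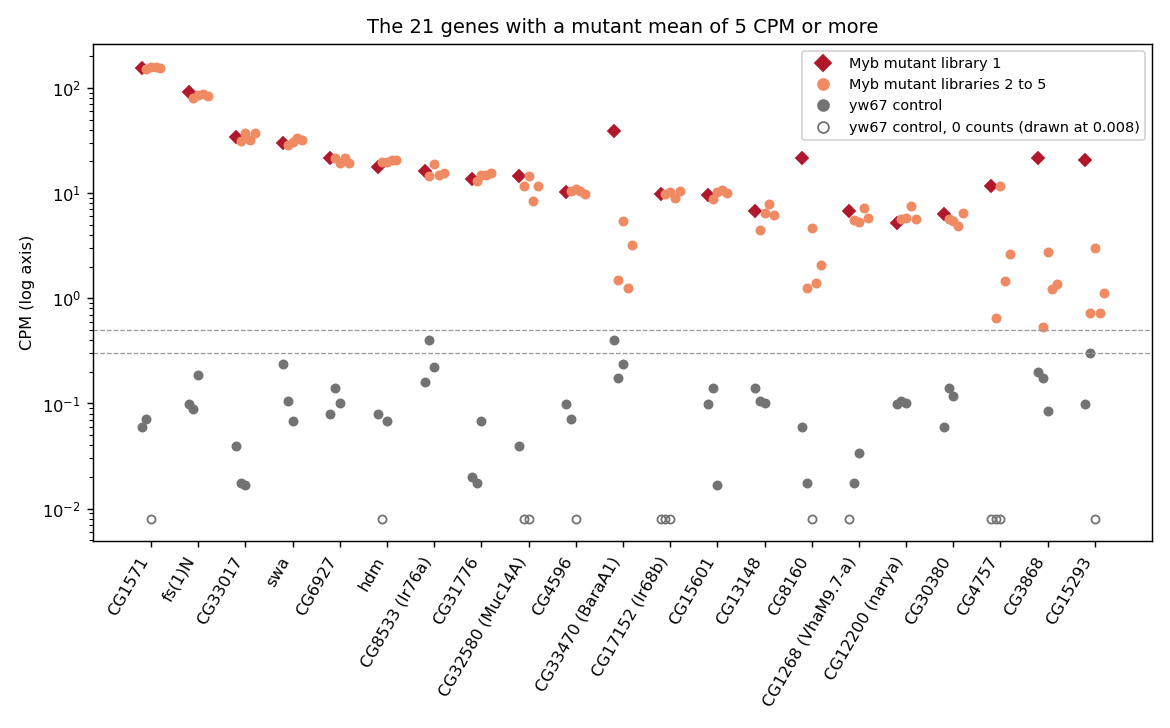
CPM on a log axis in each library for the 21 genes with a mutant mean of 5 CPM or more, with yw67 control libraries in grey (open circles, 0 counts, drawn at 0.008), Myb mutant library 1 as diamonds and libraries 2 to 5 as filled circles. The dashed lines mark the rule's limits of 0.3 and 0.5 CPM, and library 1 lies far above the other mutant libraries for CG33470, CG8160, CG3868 and CG15293.

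Genes of the oocyte and of meiosis formed the most highly expressed group of known function. fs(1)N, or Nasrat, encodes an eggshell protein needed for the vitelline membrane and for terminal patterning of the embryo. It measured 0.0996, 0.0882 and 0.186 CPM in the control libraries and 91.2, 80.5, 85.2, 87.1 and 84.5 CPM in mutant libraries 1 to 5. All mutant libraries were close together, and the pooled ratio was 677 (443 to 1094). swa, or swallow, is required for the localisation of bicoid RNA in the oocyte. It measured 0.239, 0.106 and 0.0678 CPM in the control against 30.2, 28.9, 30.6, 33.5 and 32.2 CPM in the mutant, a ratio of 235 (155 to 375). The annotated pseudogene swaPsi lies 107 bases beyond swa on the same strand and moved from 0.453 to 1.80 CPM (log2 difference of 1.98 ± 0.20 SE, edgeR adjusted p = 1.3e-04), so reads of these similar copies may have been split between them.

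The meiotic members rose in every mutant library too. hdm, an OB-fold protein of meiotic recombination, measured 0.0797, 0 and 0.0678 CPM in the control against 17.6, 19.7, 19.9, 20.5 and 20.8 CPM in the mutant, a ratio of 409 (208 to 949). narya (CG12200) and vilya (CG2709) encode related RING domain proteins needed to form meiotic double-strand breaks. narya measured 5.15, 5.73, 5.76, 7.60 and 5.68 CPM in mutant libraries 1 to 5 and 0.0996 to 0.106 CPM in the control. vilya measured 3.28 CPM in mutant library 1 and 3.87 to 4.00 CPM in libraries 2 to 5, and 0 to 0.102 CPM in the control. solo (CG33678), which holds sister chromatids together in meiosis, reached only 0.595 to 1.13 CPM. solo shares 563 of its 3337 exon bases with vas on the same strand, and vas itself rose from 1.02 to 10.4 CPM (log2 difference of 3.34 ± 0.11 SE, edgeR adjusted p = 9.9e-08), so the level of solo is uncertain. The third member of the vilya and narya family, nenya (CG31053), averaged 0.018 CPM in control and 0.142 CPM in mutant libraries and was too low to be tested.

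Outside the set, meiosis genes went both ways. Of 37 genes on a meiosis list, 4 were members and 30 others were tested. The members were picked for their rise from near silence, so their contrast with the 30 is in part fixed by the rule. Of the 30, 5 were higher and 13 lower in the mutant, with a median log2 change of -0.15 beside 0.01 over all 9076 genes tested, of which 16.9% were called higher and 17.5% lower. Among the higher genes, sunn (CG32088), a cohesin subunit of meiosis, rose from 1.27 to 16.1 CPM (log2 difference of 3.66, edgeR adjusted p = 2.2e-07). c(3)G, a component of the synaptonemal complex, rose from 6.597 to 13.6 CPM (1.04, edgeR adjusted p = 0.0011). In the opposite direction, mei-218 fell from 17.2 to 2.80 CPM (log2 difference of -2.61, edgeR adjusted p = 6.3e-06) and mei-217 from 17.7 to 2.90 CPM (-2.61, edgeR adjusted p = 1.3e-05). Both encode proteins of the complex that promotes meiotic crossovers, and they are transcribed together. cort, a meiotic activator of protein degradation, fell from 6.24 to 1.63 CPM. Genes for egg formation and patterning also went both ways. Of 14 tested genes of that list outside the set, 2 were higher and 3 lower, among them exu, a partner of swa in bicoid localisation, which fell from 3.73 to 0.884 CPM (log2 difference of -2.08, edgeR adjusted p = 4.2e-04). With libraries summed by described biological replicate, exu was no longer called (edgeR adjusted p = 0.058). bcd itself and osk averaged under 0.1 CPM in both genotypes.

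The germ cell markers beside this group were higher or not called. Of 9 such markers, 8 were tested, with 4 called higher and 0 lower, beside 16.9% and 17.5% of all genes tested. Their median log2 change was 1.05, beside 0.01 over all genes tested. Those called were vas, nos, bgcn and aub, while bam, otu and AGO3 were not called and averaged under 0.4 CPM. osk was at 0 counts throughout the control and reached at most 0.130 CPM in a mutant library. The summed level of the markers was 98.7 to 194 CPM in the control against 202 to 222 CPM in the mutant, nearly all of it from ovo, which was not called. Without control library 2 the control sums were 181 and 194 CPM. The part of germ cells in the rise of the oocyte and meiosis members was not tested.

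The chemosensory members lay below fs(1)N, swa and hdm in mean mutant level but above narya, vilya and solo. The neural members were lower than the chemosensory ones. Ir68b (CG17152) and Ir76a (CG8533) encode ionotropic receptors, relatives of glutamate receptors that serve smell and taste. Ir68b was at 0 counts throughout the control and measured 9.77, 9.87, 10.3, 9.04 and 10.4 CPM in mutant libraries 1 to 5. Against a floor of 3 counts over the control group it was at least 547-fold higher. CG8533 measured 0.159, 0.406 and 0.2202 CPM in the control against 16.3, 14.7, 19.0, 14.8 and 15.4 CPM in the mutant. The annotation now joins CG8533 with CG34257 as one gene, Ir76a, yet CG34257 went only from 0.422 to 0.681 CPM and was not called (edgeR adjusted p = 0.074). CG8533 shares 297 exon bases with CG14102 on the other strand, which rose from 10.98 to 16.9 CPM, and whether counting used strand is not stated, so its level is uncertain. Of 56 gene models with an ionotropic receptor symbol, 20 had no counts in any library. Of the 12 tested outside the set, edgeR called 0 in either direction, with 4 higher and 2 lower at an unadjusted p under 0.05, and DESeq2 called 1 higher and 1 lower.

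mGluR (mGluRA), the metabotropic glutamate receptor, led the neural members. It measured 3.75, 3.44, 3.28, 3.09 and 2.68 CPM in the mutant and 0.239, 0.0176 and 0.0508 CPM in the control. The mutant libraries were all at least 10 times the highest control library. beat-IIb, a cell surface protein of the Beaten path family, averaged 2.62 ± 0.43 CPM (SD, n = 5), onecut, a homeodomain factor of neurons, 2.105 ± 0.371 CPM, and Tusp, a Tubby-related protein, 1.95 ± 0.27 CPM. ChAT (Cha), which makes acetylcholine, rose to 0.897 to 1.56 CPM from 0.0356 CPM. The vesicular acetylcholine transporter VAChT, which shares 606 exon bases with ChAT on the same strand, was at 0 counts in the control and averaged 0.032 CPM in the mutant. RIC-3 (CG30296), a chaperone of acetylcholine receptors, reached 0.740 to 1.00 CPM, the histamine-gated channel HisCl1 0.538 to 0.986 CPM and the SNARE protein Snap25 0.508 to 0.740 CPM. HisCl1 shares 101 exon bases with Sbf on the other strand, which averaged 55.5 CPM in control and 60.9 CPM in mutant libraries. Tusp shares 308 with CG5611 on the other strand, at 17.5 and 18.0 CPM, so the levels of both members are uncertain.

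Most genes of synaptic transmission stayed near silent in both genotypes. Of 26 genes on that list, 5 were members and 5 others were expressed enough to be tested. Of these, 1 was higher, unc-13, a vesicle priming factor, from 52.9 to 106.5 CPM (log2 difference of 1.02, edgeR adjusted p = 0.018), and 0 were lower, by edgeR (also at an unadjusted p under 0.05) or by DESeq2. The control libraries of unc-13 were at 65.9, 25.6 and 67.2 CPM, and without library 2 the log2 difference was 0.69 (edgeR adjusted p = 9.6e-04). The subunits of acetylcholine receptors on the list, with the transporters ChT, Vmat and VGlut, averaged under 0.2 CPM in both genotypes. Of 8 neuron markers, 4 were tested and 0 were called by edgeR, with 1 higher at an unadjusted p under 0.05 and 1 higher by DESeq2. Their sum was 16.4 to 33.7 CPM in the control against 31.4 to 39.0 CPM in the mutant, most of it from elav, while n-syb, brp and para stayed under 0.3 CPM in every library. Without control library 2, the control sums were 31.6 and 33.7 CPM.

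The surface and matrix members were led by Muc14A (CG32580), a mucin. It measured 0.0398, 0 and 0 CPM in the control against 14.7, 11.6, 14.5, 8.48 and 11.6 CPM in the mutant, a ratio of 1017 (281 to 8402) that rests on 2 control counts. Vajk4 (CG30101), a protein of the cuticle, varied most in this group, with 4.36, 2.08, 2.62, 0.576 and 4.02 CPM in mutant libraries 1 to 5. Its lowest mutant library was less than 2 times its highest control library, at 0.322 CPM. The integrin subunit ItgaPS4 (alphaPS4) averaged 1.90 ± 0.79 CPM (SD, n = 5) and the tetraspanin TM4SF 1.80 ± 0.33 CPM. ItgaPS4 begins 262 bases beyond scb on the same strand, which averaged 53.3 CPM in control and 75.4 CPM in mutant libraries. Reads running on from scb cannot be told apart from those of ItgaPS4. obst-E, a chitin-binding protein, and Osi9, of the Osiris family, stayed close to the limits at 0.975 ± 0.401 and 0.770 ± 0.065 CPM, with control means of 0.275 and 0.263 CPM.

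Among enzymes and transporters, VhaM9.7-a (CG1268), a subunit of the vacuolar proton pump, measured 6.72, 5.52, 5.33, 7.27 and 5.81 CPM in the mutant. Its ratio of 337 (115 to 1636) rests on 3 control counts. The white gene w, an ABC transporter for eye pigment precursors, measured 4.03, 2.27, 3.48, 2.05 and 2.90 CPM in the mutant and 0.0597, 0.194 and 0.203 CPM in the control. By its stated genotype the mutant line carried w1118, and the control line carried w67c23. If the mutant larvae kept w1118 after the outcross, the genotypes differ in allele at w, which was not checked. Such a difference cannot be told apart from that at Myb. veil (CG4827), which converts nucleotides outside the cell, averaged 1.98 ± 0.77 CPM (SD, n = 5), and Agpat1 (CG3812), an acyltransferase of lipid synthesis, 1.91 ± 0.22 CPM. Agpat1 shares 1008 exon bases with CG32647 on the other strand, itself under 0.1 CPM in both genotypes. desat2, a fatty acid desaturase of cuticular hydrocarbons, reached 1.02 to 1.26 CPM, and the serine proteases Sp212, CG11842 and CG30287 averaged 0.803, 0.867 and 1.00 CPM.

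For the comparison with genes outside the set, each member's start site was set against the nearest gene start on the other strand pointing away from it. Of 75 members placed in BDGP6, 28 (37.3%) had such a divergent partner within 1000 bases, beside 4340 of 13266 genes (32.7%). At 500 bases the shares were 30.7% and 24.5%, and at 2000 bases 46.7% and 40.2%. Among the 21 members of 5 CPM or more, 12 had a partner, and among the other 55 members, which include the unplaced CG40715, 16 did. No partner was itself a member. Some of these paired promoters were the places where the study designed oligos for chromatin immunoprecipitation, and the oligos for 6 pairs are printed here because each pair names both the silent gene and its active neighbour.
Upf2_CG1571 forward: accatggactaaacaggtgc
Upf2_CG1571 reverse: taaataagaaaatccaactaagcatattcg
DAAM_fs(1)N forward: agtgagcttggttttcgttttc
DAAM_fs(1)N reverse: accactttggaggtctttcc
swa_Marf forward: attctagtcggcaatgtacgg
swa_Marf reverse: agctgatgcgttttcaaatgg
hdm_Ykt6 forward: ttaaaacatttacagaaagttgcgc
hdm_Ykt6 reverse: acatatgcgtagtgtgtgtcag
Fdh_CG4596 forward: gcatatacaatcgcagccaac
Fdh_CG4596 reverse: ttgttttgcgagtagcttttgt
CG17207_Desat1 forward: cgatacttatctaacgcattactagttg
CG17207_Desat1 reverse: tttcaacgaaacaatattctcctgg

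The oligos are written 5 prime to 3 prime and no part of them is marked. Of the 28 partners, 25 were tested, and these were active in the control. Their median level was 82.7 CPM in the control against 82.7 CPM in the mutant, beside 34.4 and 34.4 CPM over all genes tested. edgeR called 6 partners higher and 2 lower, 32.0% of the 25, a share close to the 34.4% of all genes tested. The log2 changes of the partners ran from -0.21 to 0.79.

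The pair of CG1571 and Upf2 shows the contrast most plainly. Their start sites lie 411 bases apart on the X. Upf2, a factor of nonsense-mediated RNA decay, measured 110.0, 81.2 and 107 CPM in the control against 103 to 106 CPM in the mutant, and was not called (log2 change 0.07 ± 0.08 SE, edgeR adjusted p = 0.49). CG1571 thus went from near silence to a level above that of its neighbour in every mutant library. fs(1)N likewise reached 85.7 CPM beside DAAM at 82.7 CPM, with start sites 151 bases apart. DAAM, a formin that organises actin, was one of the partners that rose, from 53.0, 54.9 and 54.6 CPM in the control to 89.0, 81.4, 89.4, 66.1 and 87.4 CPM in the mutant (log2 change 0.61 ± 0.10 SE, edgeR adjusted p = 0.0017).

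Most partners of the next members changed little, with CG9281 beside CG15601, described below, as an exception. Khc, the kinesin heavy chain, starts 143 bases from CG33017 and averaged 338 CPM in the control against 341 CPM in the mutant (edgeR adjusted p = 0.91). Marf, the fly mitofusin, starts 241 bases from swa and averaged 126 and 123 CPM (edgeR adjusted p = 0.43). Ykt6 (l(1)G0155), a SNARE protein 278 bases from hdm, fell from 54.5 to 47.2 CPM (log2 difference of -0.21 ± 0.04 SE, edgeR adjusted p = 0.0070). The helicase gene Pif1 (CG3238), 178 bases from CG31776, averaged 63.0 and 56.5 CPM (edgeR adjusted p = 0.053), and Fdh, formaldehyde dehydrogenase, 657 bases from CG4596, 386 and 349 CPM (edgeR adjusted p = 0.19). Nup188 (CG8771), a nuclear pore protein 70 bases from CG13148, averaged 176 and 179 CPM over all libraries (edgeR adjusted p = 0.89). Control library 2 decided some of these calls. Without it Nup188 was called lower (log2 change -0.13, edgeR adjusted p = 0.023), as were Marf (-0.07, edgeR adjusted p = 0.019) and Pif1 (-0.21, edgeR adjusted p = 0.021), and Pif1 was also called lower without mutant library 5 (edgeR adjusted p = 0.044).

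The other partners called higher were CG9281 beside CG15601, from 247 to 352 CPM (log2 difference of 0.51 ± 0.05 SE, edgeR adjusted p = 1.3e-04), CG10863 beside CG14982, from 4.42 to 7.66 CPM (0.79 ± 0.11), and Desat1 beside CG17207, from 289 to 357 CPM (0.30 ± 0.06). The mitochondrial RNA polymerase PolrMT (CG4644) beside CG14339 (0.16 ± 0.05, edgeR adjusted p = 0.029) and prd1 (CG17360) beside HisCl1 (0.30 ± 0.10, edgeR adjusted p = 0.048) were called over all libraries. PolrMT lost its call without mutant library 2, 3 or 5 or control library 2 or 3 (edgeR adjusted p from 0.056 to 0.092), and prd1 without any single library but control library 3 (0.068 to 0.093). CG4332, 114 bases from CG4318, was lower, from 129.8 to 116 CPM (-0.17 ± 0.04, edgeR adjusted p = 0.0075). With libraries summed by described biological replicate, the calls of Ykt6, CG4332, PolrMT and prd1 were lost (edgeR adjusted p from 0.052 to 0.119). CG4318 itself was at 3.81 to 4.499 CPM in the mutant with 1 count over the control libraries. The 3 partners not tested, CG34241 beside Ir68b, CG30379 beside CG30380 and CG7755 beside CG9068, had no counts in the control and stayed under 0.2 CPM in every mutant library, so these members turned on beside a neighbour that stayed silent.

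**Figure D3:**
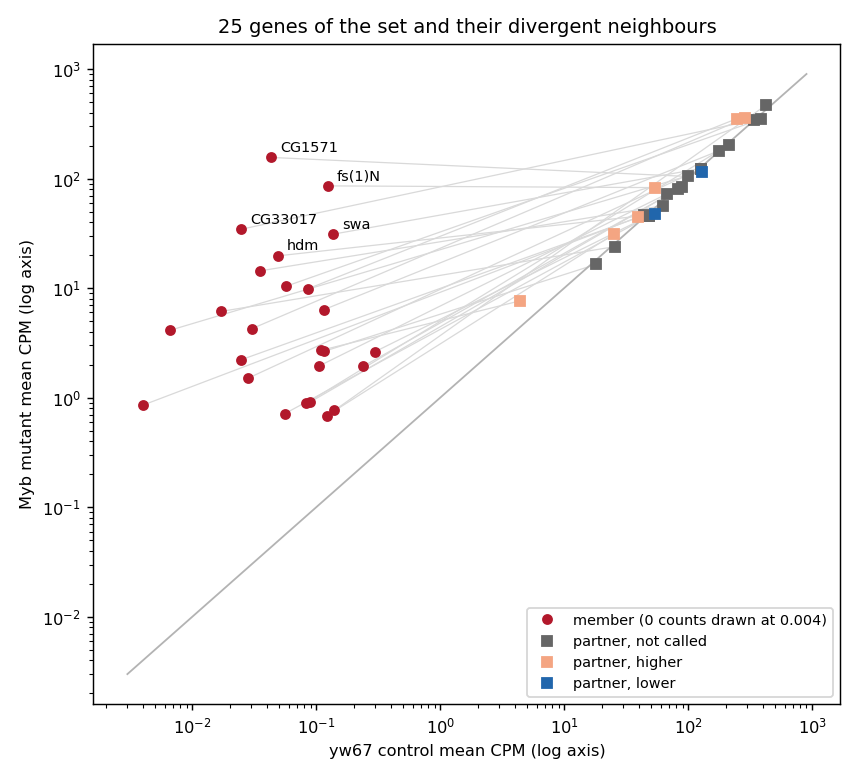
Mean CPM in the Myb mutant against mean CPM in the yw67 control, both on log axes, for 25 genes of the set (circles, 0 counts drawn at 0.004) and their divergent partners (squares, coloured by the edgeR call), joined by grey lines. The circles lie far above the diagonal of equal levels and the squares lie on or near it, with 6 partners called higher and 2 lower.

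In the order of genes along the chromosomes, few members were neighbours of each other. CG12698 and Muc14A lay 392 bases apart on the same strand of the X. CG12698 measured 1.45, 1.53, 1.54, 1.38 and 1.64 CPM in the mutant and 0, 0 and 0.0847 CPM in the control, and its partner vap, a regulator of Ras 335 bases away, was not called over all libraries (called lower without control library 2, edgeR adjusted p = 0.033). desat2 and CG17207 overlap by 41 exon bases on opposite strands and rose to 1.11 and 4.26 CPM, with Desat1 on the far side of CG17207. vilya begins 100 bases beyond the end of fs(1)Ya on the same strand. fs(1)Ya, a nuclear lamina protein of the egg left out of the set by its symbol, met the same limits and so was selected on its levels, at means of 0.188 CPM in control and 8.89 CPM in mutant libraries. Reads running on from it into vilya cannot be told apart from vilya's own.

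The nearest gene on each side of the members gave 144 genes outside the set, of which 99 were tested. fs(1)Ya and cato met the rule's limits and were dropped only by symbol. Of the other 97, 26 (26.8%) were higher, beside 16.9% of all genes tested, and 8 were lower. Several of them are the divergent partners described above. Over 4-fold higher were 4, all near silent or low in the control. They were CG2254 after CG1571 (0.030 to 0.660 CPM), CG10799 after CG4716 (0 to 0.398 CPM), CG1909 after onecut (0.395 to 3.37 CPM) and Sodh-2, a sorbitol dehydrogenase, after CG4596 (1.05 to 5.64 CPM). CG11409, which faces the end of fs(1)N from 79 bases away, was already active and rose from 42.3 to 97.9 CPM (log2 difference of 1.20 ± 0.10 SE, edgeR adjusted p = 2.9e-05). Of the 8 lower genes, the heat shock genes Hsp70Ba and Hsp70Bbb, the nearest placed genes to alphagamma-element, fell most. Hsp70Ba, 7559 bases away, fell from 37.8 to 2.69 CPM (log2 difference of -3.85 ± 1.11 SE, edgeR adjusted p = 0.027). Hsp70Bbb, 24242 bases away, fell from 57.6 to 3.98 CPM (-3.89 ± 1.11 SE, edgeR adjusted p = 0.026). Where neighbours run towards each other, reads past a gene's end may be counted to the next gene. In all, 18 of the placed members share exon bases with another gene, 14 of them with a gene on the opposite strand.

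Of the 75 placed members, 16 (21.3%) lay on the X, beside 16.2% of all genes placed, and 8 (10.7%) on 2L beside 18.2%. On chromosome 4 lay 2 (2.67%), beside 0.645%. Among the 21 members of 5 CPM or more, 8 (38.1%) lay on the X, including CG1571, fs(1)N, swa, CG6927 and hdm. The mutant chromosome is an X, and 3 members lie within 200 kb of Myb: CG15601 at 147 kb, CG12698 at 148 kb and Muc14A at 151 kb. The other 13 X-linked members lie 2622 to 14535 kb away.

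Spread across the mutant libraries differed among the members. The highest and lowest mutant library differed by less than 1.5-fold for 40 of the 76 members and by less than 2-fold for 58. The same shares over all genes tested were not computed. The rule's floor of 0.5 CPM in each mutant library favours even levels. By the descriptions, libraries 2 to 5 are also repeats of the same sample. The median coefficient of variation of the members over the 5 mutant libraries was 15.4%, beside 8.98% that counting error alone would give and 5.06% over all genes tested, which are mostly more abundant. In 8 members the highest library exceeded the lowest more than 5-fold.

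A small group was high in mutant library 1, the library that the descriptions place in a biological replicate of its own. Library 1 was more than 2-fold above the mean of libraries 2 to 5 for 6 members (7.89%), beside 3.58% of all genes tested, and more than 2-fold below it for 1 member, CG1208, beside 0.771%. BaraA1 (CG33470), which encodes immune-induced peptides of the Baramicin family, measured 38.9 CPM in library 1 and 1.49, 5.38, 1.25 and 3.18 CPM in libraries 2 to 5, against 0.176 to 0.398 CPM in the control. It shares 272 exon bases with CG30059 on the other strand, which averaged 10.5 CPM in the control. CG8160 measured 21.4 CPM in library 1 and 1.25, 4.62, 1.39 and 2.09 CPM in the others. CG3868 measured 21.4 CPM in library 1 and 0.539, 2.73, 1.23 and 1.35 CPM in the others, and CG15293 20.5 CPM and 0.725, 3.00, 0.725 and 1.13 CPM. For CG4716 the values were 8.66 CPM and 0.595, 0.508, 1.21 and 0.598 CPM, close to the rule's limit in 3 of the other libraries. In each of these 5 genes library 3 or 4 came next and lay far below library 1. CG4757, with 0 counts in every control library, was high in libraries 1 and 3, at 11.6 and 11.7 CPM, and low in libraries 2, 4 and 5, at 0.651, 1.47 and 2.63 CPM.

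Markers of some other larval tissues also varied between libraries, in patterns that differed by tissue. Summed markers of glia, trachea and muscle varied less than those of salivary gland and fat body. Glia markers summed to 254 to 286 CPM in the control and 278.5 to 291 CPM in the mutant. Trachea markers summed to 860 to 1047 and 867 to 1011 CPM, and muscle markers to 52.1 to 66.7 and 54.2 to 96.5 CPM. The 6 salivary gland glue genes summed to 193 CPM in mutant library 1, 42.0 CPM in library 3 and 0.632 to 9.56 CPM in libraries 2, 4 and 5, with 4.08 to 17.0 CPM in the control. The 6 fat body markers summed to 5233 CPM in library 1 and 465 to 3459 CPM in the other mutant libraries, and to 4578, 1786 and 76.1 CPM in control libraries 1 to 3, all 6 detected in every library. The immune peptide genes IM2 and IM3 measured 41.6 and 33.5 CPM in library 1 and at most 4.91 CPM in the others. Their part in the levels of BaraA1, CG8160, CG3868, CG15293, CG4716 and CG4757 was not tested. Of 7 hemocyte markers, 6 were lower in the mutant by edgeR and crq was not called (44.6 CPM in the control, 40.6 CPM in the mutant). Their sum was 43.4 to 61.5 CPM in mutant and 217.3 to 302 CPM in control libraries, and crq made up most of the mutant sum. In contrast CG1208 and CG15347 were highest in mutant library 4, at 7.08 and 5.56 CPM, and measured 1.54 to 3.70 CPM and 0.924 to 3.18 CPM in the others. Without library 1 the mean levels of CG1571, fs(1)N, swa and hdm were 155.6, 84.3, 31.3 and 20.2 CPM, whereas those of BaraA1, CG3868 and CG15293 were 2.82, 1.46 and 1.40 CPM.

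**Figure D4:**
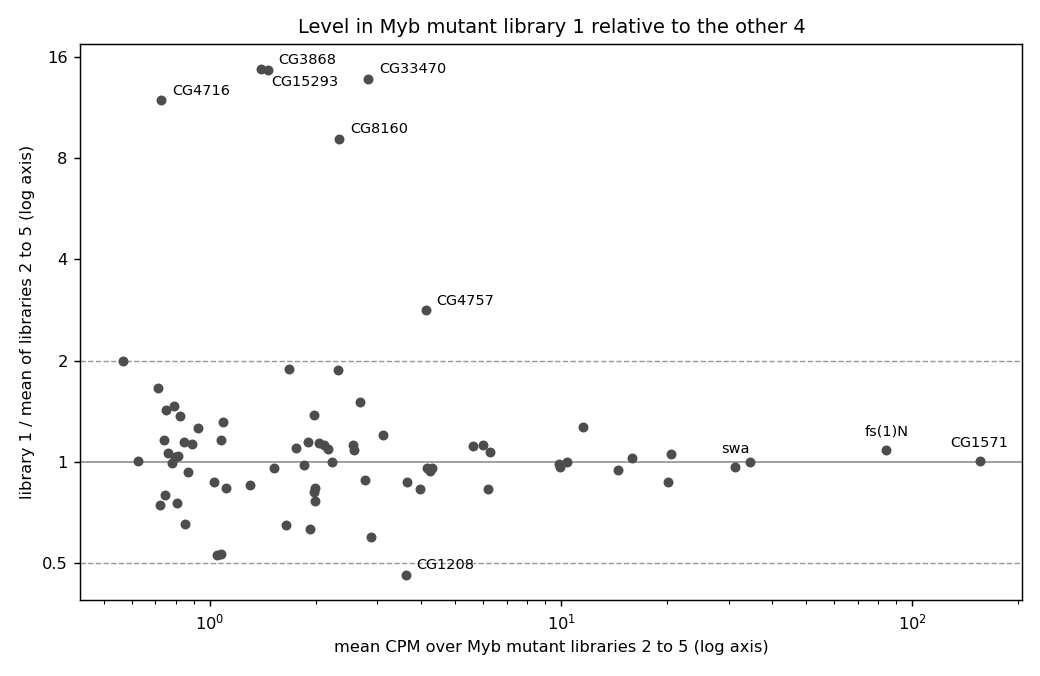
Level in Myb mutant library 1 divided by the mean of libraries 2 to 5, plotted on a log axis against that mean in CPM (log axis) for all 76 genes, with dashed lines at 2-fold in either direction. Most genes lie near 1, including CG1571, fs(1)N and swa, and CG33470, CG8160, CG3868, CG15293, CG4716 and CG4757 lie above the upper line.

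The remaining members rose to lower levels. dao (CG15267), CG13949 and CG17625 had no counts in the control and measured 1.66 to 2.03, 1.66 to 2.47 and 0.807 to 0.976 CPM in the mutant, at least 102-fold, 120.2-fold and 47.4-fold higher against the floor of 3 counts over the group. CG13045, CG5955 (Tdh) and CG9068 had 2 control counts each, with ratios of 81.0 (22.2 to 672), 71.9 (19.7 to 597) and 67.96 (18.6 to 564). ouib (CG11762), a zinc finger factor known for steroid synthesis in the prothoracic gland, averaged 2.23 ± 0.22 CPM (SD, n = 5), and its control libraries held 0.0199, 0.123 and 0.644 CPM, the last closer to the mutant than the rest. CG14747 and CG14748, which the annotation now joins as CG42326, both entered the set, at 0.793 ± 0.194 and 1.78 ± 0.53 CPM. The 17 members outside the rule for named genes had mutant means of 0.624 to 4.18 CPM and ratios of 3.67 to 176. At the low end, 9 members rose less than 5-fold, the lowest being alphagamma-element at 2.65-fold, Osi9 at 2.91-fold and CG40715 at 2.83-fold.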

How the data were processed

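Polyadenylated RNA of 8 wing disc samples was sequenced. The authors trimmed reads with Trimmomatic (version 0.22 per the labels; the methods give another version), aligned them with Bowtie2 version 2.1.0 to exons of an older FlyBase gene set and summed unique eXpress counts per gene. The deposited counts were raw. Strand use in counting is not stated. The deposited table also held the authors' DESeq2 log2 fold change and p-value columns, which were not used. The mitochondrial row (0.574 to 1.34% of counts) was left out, and 4 symbols stored as dates were replaced.

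CPM used column totals. Floors of 3 counts and Poisson-based 95% intervals cover counting error only. Of the members, 70 were matched to BDGP6 (Ensembl) by identifier and 5 by synonym, and CG40715 was not matched. Positions are BDGP6, not the build of the alignment. The test for genes outside the set was edgeR version 4.0.16 (R version 4.3.3) with filterByExpr, TMM and the quasi-likelihood test on genotype, Benjamini-Hochberg adjusted p under 0.05 over 9076 genes, checked on simulated counts. DESeq2 version 1.42.0 was an alternative.

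Members named in full were those of 5 CPM or more, those in role lists, the 5 most variable, those nearest each limit, those with a divergent partner and those adjacent to each other. From the lists, genes outside the set were named where called with a 2-fold change and 1 CPM in the higher genotype, and 1 such gene is not reported here. nenya, bcd, osk, VAChT, CG34257, Snap25, ouib and other genes outside this rule were chosen after their values were seen. The members and lists were chosen with earlier results of these data known.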

Additional observations from a re-analysis of the deposited data

Results flagged for a closer look

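Each named member's 5 mutant libraries were examined for a library far from the rest. Of 59 members, 9 had one. Chance flags about 1 in 20 groups, but that rate cannot be set against this count. The 5 most variable members were named for their spread and some others for a low library, and all share the same 5 libraries. In 7 of the 9 the library was mutant library 1. It was the highest for CG33470 (38.9 CPM, median of the 5 libraries 3.18), CG8160 (21.39, median 2.09), CG3868 (21.39, median 1.35), CG15293 (20.53, median 1.13), CG4716 (8.659, median 0.598) and CG5002 (1.129, median 0.614), and the lowest for CG2709 (3.281, median 3.96). Mutant library 4 was highest for CG12200 (7.604, median 5.73) and library 5 for CG17625 (0.9761, median 0.818). No cause was tested.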

How the results depend on the processing

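The set held 33 genes with a control mean under 0.1 CPM, 45 with 1 CPM or more in each mutant library, and 69 to 82 without each library in turn (69 without control library 2, of which 64 were shared). With 1.5-fold in place of 2-fold, 11 members were above and 7 below in mutant library 1. Over all genes, 1183 to 1702 were higher and 1191 to 1758 lower without each library in turn. Summed by described biological replicate, 744 were higher and 766 lower, a fit that assumes the single control sample to vary like the mutant samples. Of the partners, 4 to 5 were higher and 2 to 6 lower without each library (6 lower without control library 2), 0 were lower in the summed fit, and 5 were lower without control library 2 and mutant library 1, an alternative chosen after seeing the data. The log2 change of Nup188 (CG8771) was 0.02, ran from -0.131 (without control library 2) to 0.113 without each library in turn and was -0.144 without both. List genes numbered 8 higher and 16 lower, 6 to 10 and 16 to 20 without each library, and 5 higher in the summed fit. The cause of these changes was not tested.

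The shared sample numbers did not pair the samples: deviations of samples with the same number correlated at 0.357, -0.113 and -0.031. With the replicate number as a block, 744 genes were higher and 651 lower, 3 partners were higher and 1 lower, and 3 list genes were higher. The search for a Myb motif in member promoters was not run, since promoter sequence was not used here.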
